A study of Rattus rattus with 8 samples.

Results

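Mitochondrial ribosomal protein genes were described in diploid (2n) and tetraploid (4n) fractions of hypoxic neonatal rat cardiac cell cultures. The members were the rows of the gene expression table with an Mrpl or Mrps symbol that reached 10 or more counts in at least 4 libraries. Of the 30957 rows, 76 carried such a symbol and 70 met the rule, 41 named Mrpl and 29 named Mrps, on 18 chromosomes. The lowest count of any member in any library was 53 and the highest 2293, so no member entered through a single group, and all 70 were among the 12983 genes tested. The 6 rows under the rule were Mrpl30, both rows of Mrpl36 and both rows of Mrpl53, all listed at 0 in every library, and a second row of Mrps36 with 4 and 1 counts in the 4n libraries of replicates 3 and 4.

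The mitochondrial ribosome, or mitoribosome, translates the few mRNAs that the mitochondrial chromosome still encodes, all of them for subunits of the respiratory chain and the ATP synthase. Its ribosomal RNAs are mitochondrial transcripts, whereas its proteins are encoded in the nucleus, made in the cytosol and imported. The large subunit joins amino acids and the small subunit reads the mRNA, and each combines proteins with bacterial homologs and proteins found only in mitochondria. The heart depends on this machinery for oxidative energy supply, and inherited defects in several of the genes cause cardiomyopathy.

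Both groups came from SD rats 1 to 3 days after birth (the organism label reads Rattus rattus, the name of the black rat). Cells enriched by differential adherence spent 24 h in culture with AraC (0.2 mM), which blocks DNA synthesis, and an insulin, transferrin and selenium supplement. They were then starved of serum, kept at 1% oxygen for 48 h and sorted by DNA content with the dye Hoechst (2 µg/mL). The 4 libraries of each group came from independent experiments, and hypoxia, AraC and starvation were common to both groups, so the comparison holds no normoxic group. A 4n DNA content is shared by cells with a tetraploid nucleus, cells with a pair of diploid nuclei, cells in G2 or mitosis and attached pairs of diploid cells, which the labels do not separate. RNA was selected for mRNA before sequencing.

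Total counts ranged from 14783521 to 21033772 per library. Against the cell type label, cardiomyocyte markers made up 0.0632 to 0.126% of nuclear gene counts in the 2n libraries, where fibroblast markers made up 4.93 to 6.36%. In the 4n libraries of replicates 1 to 4 the cardiomyocyte markers reached 0.552, 1.12, 4.20 and 1.77%, and 13 of 13 passed edgeR's quasi-likelihood test as higher (12 of 13 with replicate number as a block). Fibroblast markers lay between 3.28 and 5.93% in 4n, with 0 of 7 passing (1 at an unadjusted p under 0.05, 1 lower by DESeq2 and 2 lower with the block). All 7 nonetheless had a negative log2 fold change, with a median of -0.54, and 5 of the 7 dropped within each pair. Every 4n library held a smaller fibroblast percentage than the 2n library of its replicate number, with group means of 4.59% and 5.90%. Endothelial markers lay between 0.00295 and 0.00570% in 2n and between 0.00621 and 0.0417% in 4n, highest in replicate 4. Of the 6, 5 were in the table, with a median log2 fold change of 2.98, and edgeR called 0 of 5 without the block (4 at an unadjusted p under 0.05) and 4 higher with it, while DESeq2 called 2. Smooth muscle and pericyte markers (6 of 6 in the table) gave 0.657 to 1.08% in 2n and 0.595 to 1.15% in 4n, and epicardial markers (5 of 5) stayed at or below 0.0133%. edgeR called 0 of both lists without the block (2 of each at an unadjusted p under 0.05), as did DESeq2, and 1 epicardial marker was higher with the block. Immune markers stayed at or below 0.000745%, with Cd3e at 0 throughout and Ptprc at 0 in 4 of the 8 libraries. The part these shares play in the differences described here was not tested, and in bulk libraries fewer cells of a type and less RNA per cell cannot be told apart.

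Mitoribosomal protein transcripts had small positive differences (4n over 2n) relative to other genes in most members, and no single member passed the test without the replicate block. Of the 70 members, 69 had a positive log2 fold change under TMM scaling (trimmed mean of M-values), against 48.2% of all genes tested. Under total count scaling 59 were positive, and on log2(FPKM + 0.1) and log2(FPKM + 1) 55 and 56. The median log2 fold change was 0.42, a 1.34-fold difference, against -0.01 over all genes tested, and single members ranged from -0.02 for Mrps33 to 1.34 for Mrps36. In 21 members the fitted fold was at least 1.5 and in 2 it was at least 2. Apart from Mrps33, members lay between percentiles 51.9 and 95.0 of all log2 fold changes, with a median percentile of 83.1.

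By edgeR's quasi-likelihood test, adjusted over all genes by Benjamini and Hochberg, 0 of 70 members were higher and 0 lower in 4n at an adjusted p under 0.05. Over all genes, 2.67% were called higher and 0.0077% lower, shares so small that 0 calls among 70 members is close to the background. The smallest member value was an adjusted p of 0.0678, for Mrps21. At an unadjusted p under 0.05, 31 members were higher and 0 lower, a share of 44.3% against 12.6% of all genes. limma-voom called 0 members, as it did over all genes, and DESeq2 called 14, against a DESeq2 background of 6.62%. The 14 were Mrpl12, Mrpl21, Mrpl23, Mrpl27, Mrpl28, Mrpl33, Mrpl54, Mrps12, Mrps18a, Mrps21, Mrps23, Mrps24, Mrps34 and Mrps36. CPM values here are counts scaled to library size after TMM normalisation. All 4 CPM values in 4n lay above all 4 in 2n for 19 members, or 27.1%, against 7.68% of all genes, and the reverse held for 0 members against 3.69%. Within pairs of libraries that share a replicate number, 44 members (62.9%) were higher in 4n in 4 of 4 pairs, against 20.2% of all genes.

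With the replicate number as a block, 5 of 70 members rose: Mrps12, Mrpl27, Mrpl28, Mrps34 and Mrps18a. That share, 7.14%, stands beside 4.27% of all genes called higher in the same fit, and 0 members were called lower beside 0.608%. All 5 were also among the 14 members called by DESeq2 and among the 16 that edgeR called without the 4n library of replicate 1, where 6.52% of all genes were called higher. Without the 4n library of replicate 2 or of replicate 3, edgeR called 0 members, while 303 and 277 of all genes were called higher. Without any 2n library or the 4n library of replicate 4, 0 genes of any kind were called. The block's count itself moved with the pairs used, for the members as for all genes. Without pair 1 it was 23 members, against 9.36% of all genes, and without pair 3 it was 4, against 4.28%. Those 4 were Mrpl12, Mrpl28, Mrps18a and Mrps36, so Mrps12, Mrpl27 and Mrps34 were not called there. Without pair 2 or pair 4 no gene of any kind was called (0% of all genes), so the 0 members called there say nothing about the members.

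**Figure D1:**
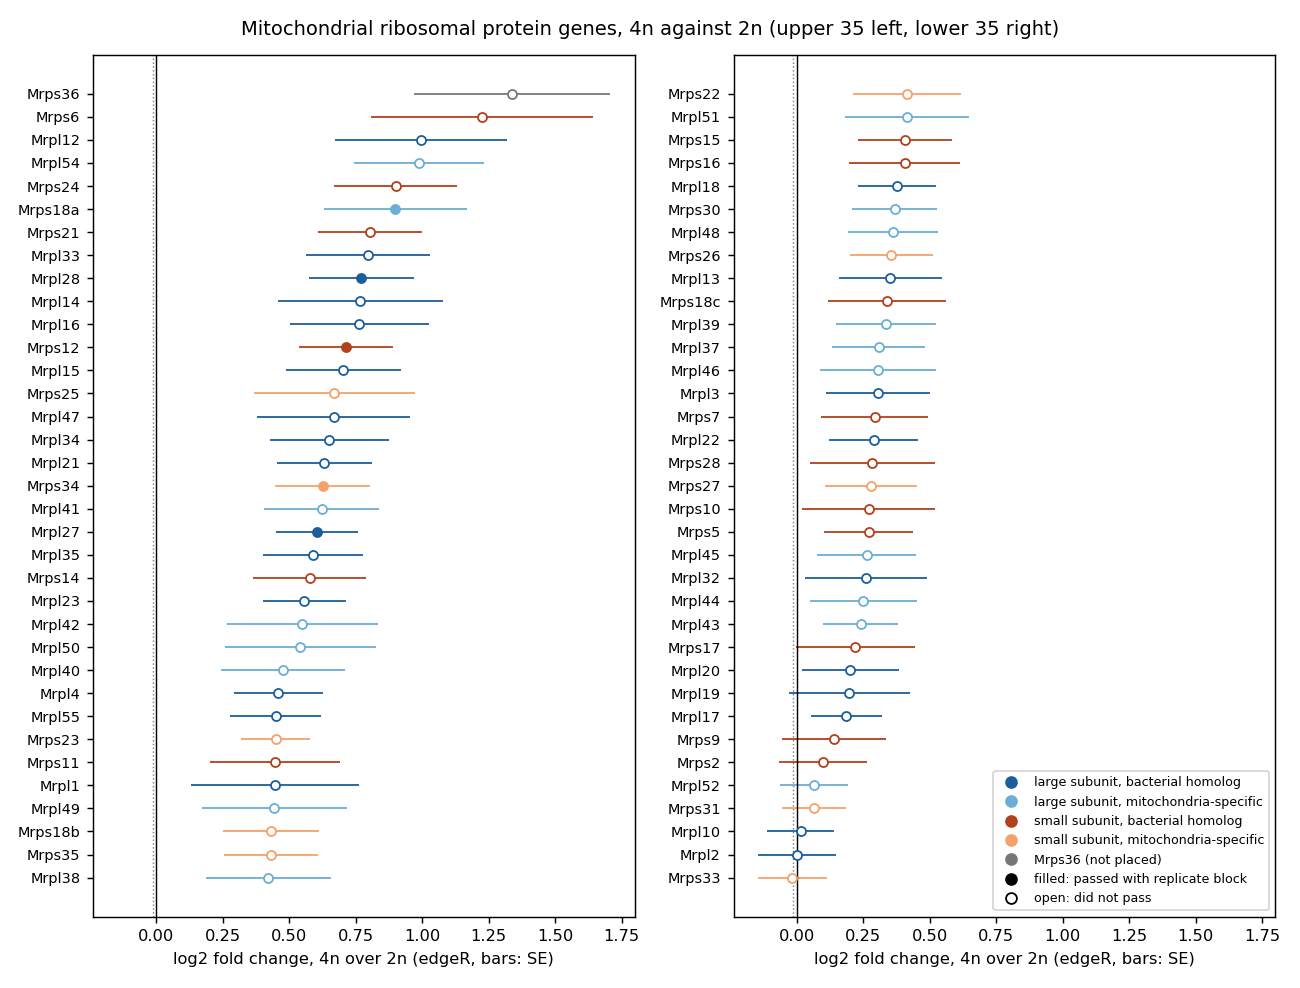
Each point is the edgeR log2 fold change (4n over 2n) of one of the 70 members, with bars for its standard error. Colours give the subunit and the class a member was listed in, with a bacterial homolog or restricted to mitochondria. The dotted line is the median of all genes tested. Points lie to the right of 0 except Mrps33 at -0.02, the upper end is Mrps36 at 1.34, and the 5 filled points are the members that passed with the replicate block.

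Large subunit proteins with a bacterial homolog included 25 members with a median log2 fold change of 0.46. Of these edgeR called 0 without the block (15 at an unadjusted p under 0.05) and 2 with it, and DESeq2 called 6. The share called with the block was 8.0%, beside 4.27% of all genes, and DESeq2 called 6.62% of all genes higher. Mrpl27, whose bacterial counterpart reaches toward the peptidyl transferase centre, lies on chromosome 10 from 82375572 to 82381332 (coordinates on Rnor_6.0). Its CPM was 13.05, 16.4, 15.5 and 12.5 in the 2n libraries of replicates 1 to 4 and 18.7, 20.5, 26.2 and 22.2 in the 4n libraries. Every 4n value was above every 2n value, and the groups did not overlap. In edgeR this was a log2 fold change of 0.61 ± 0.15 (SE, 4 libraries per group), with an adjusted p of 0.0791, and 0.0445 with the block. Mrpl28, on chromosome 10 from 15495684 to 15498295, is a structural protein of the subunit. Its CPM was 14.7, 16.2, 15.5 and 15.9 in 2n and 20.6, 24.5, 38.4 and 22.8 in 4n. The 2n libraries were close together at 15.6 ± 0.655 (SD, n = 4), the 4n library of replicate 3 stood highest, and the groups did not overlap. Its fitted log2 fold change was 0.77 ± 0.20 (SE), with an edgeR adjusted p of 0.0791 without and 0.0479 with the block.

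Mrpl12 belongs to the flexible stalk that recruits translation factors and has also been described as a partner of the mitochondrial RNA polymerase. Its CPM was 24.1, 38.9, 33.7 and 27.3 in 2n and 34.7, 53.7, 107 and 52.1 in 4n. The 4n library of replicate 3 was far above the rest, and the 4n library of replicate 1 fell inside the 2n range. Mrpl12 had an edgeR log2 fold change of 1.00 ± 0.32 (SE), adjusted p 0.158, and of 0.59 without the 4n library of replicate 3, adjusted p 0.289. DESeq2 on all libraries called Mrpl12 higher (adjusted p 0.0448). Mrpl17 had the highest level of all members per transcript length, at 95.0 ± 15.4 FPKM (fragments scaled to transcript length and library size) in 2n and 91.3 ± 9.65 in 4n (SD, n = 4). Its edgeR log2 fold change of 0.19 ± 0.14 (SE; adjusted p 0.515) was -0.06 under scaling by total counts and -0.05 on log2(FPKM + 0.1), so its direction rests on the scaling. Mrpl1, of the stalk by which spent tRNA leaves, had the lowest level, at 3.39 ± 0.374 FPKM in 2n and 3.79 ± 1.28 in 4n. Mrpl3 differed by 0.31 ± 0.20 on the log2 scale (SE; edgeR adjusted p 0.460), and defects of the human gene are known to cause cardiomyopathy.

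Large subunit proteins listed as restricted to mitochondria included 18 members with a median log2 fold change of 0.39. Of these edgeR called 0 without the block (4 at an unadjusted p under 0.05) and 1 with it, and DESeq2 called 2. The share called with the block was 5.56%, near the 4.27% of all genes, and DESeq2 called 6.62% of all genes higher. The member called with the block, Mrps18a, keeps a small subunit symbol but sits in the large subunit, as does Mrps30. Its CPM was 16.6, 27.1, 21.6 and 18.8 in 2n and 23.5, 41.3, 58.0 and 34.4 in 4n. Within every pair the 4n library was higher, but the 4n library of replicate 1 lay below the 2n library of replicate 2, so the groups overlapped. For Mrps18a edgeR fitted a log2 fold change of 0.90 ± 0.27 (SE), with an adjusted p of 0.128 without and 0.0369 with the block. Mrps18a, on chromosome 9 from 17238385 to 17254949, overlaps Rsph9 over 6709 bases, and Rsph9 averaged 22.0 counts per library against 497 for Mrps18a.

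Mrpl54 was second in level, at 41.4 ± 9.74 FPKM in 2n and 68.2 ± 14.6 in 4n (SD, n = 4). Its CPM was 26.6, 25.3, 25.7 and 15.3 in 2n and 33.7, 38.8, 65.5 and 46.3 in 4n. The groups did not overlap, and the 2n library of replicate 4 was well below the other 2n libraries. Mrpl54 missed the threshold in edgeR, with a log2 fold change of 0.99 ± 0.24 (SE) and an adjusted p of 0.0698 without and 0.0562 with the block. DESeq2 called Mrpl54 higher (adjusted p 0.00606). Mrps30 differed by 0.37 ± 0.16 on the log2 scale (SE; edgeR adjusted p 0.279). Mrpl44, another gene linked to human cardiomyopathy, differed by 0.25 ± 0.20 (SE; edgeR adjusted p 0.563) on the TMM scale and by -0.02 on log2(FPKM + 0.1). Mrpl40 was the third lowest in level, at 4.64 ± 0.566 FPKM in 2n and 5.37 ± 1.34 in 4n.

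Small subunit proteins with a bacterial homolog included 16 members with a median log2 fold change of 0.37. Of these edgeR called 0 without the block (6 at an unadjusted p under 0.05) and 1 with it, and DESeq2 called 3. The share called with the block was 6.25%, near the 4.27% of all genes, and DESeq2 called 6.62% of all genes higher. The member called with the block was Mrps12, a protein of the decoding centre, on chromosome 1 from 86920680 to 86923575. Its CPM was 7.56, 10.3, 10.2 and 11.3 in 2n and 14.0, 14.2, 19.5 and 17.0 in 4n. The lowest 4n library, replicate 1, was above the highest 2n library, replicate 4, and the groups did not overlap. Mrps12 differed by 0.71 ± 0.18 on the log2 scale (SE; edgeR), with an adjusted p of 0.0717 without and 0.0390 with the block. Mrps21, whose bacterial counterpart helps start translation, had CPM values of 12.7, 13.2, 11.9 and 12.5 in 2n and 17.6, 17.0, 30.7 and 22.4 in 4n. The groups did not overlap, and the 2n libraries were close together at 12.6 ± 0.543 CPM (SD, n = 4). Mrps21 missed the edgeR threshold both without the block, with a log2 fold change of 0.80 ± 0.20 (SE) and an adjusted p of 0.0678, and with it, at 0.0531. DESeq2 called Mrps21 higher (adjusted p 0.00736).

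Mrps6, a protein of the small subunit platform, had the second largest log2 fold change, 1.23 ± 0.42 (SE; edgeR adjusted p 0.179). Its CPM was 5.79, 8.16, 7.69 and 5.54 in 2n and 6.66, 13.8, 31.3 and 11.9 in 4n. The 4n library of replicate 1 lay inside the 2n range, and without the 4n library of replicate 3 the log2 fold change was 0.66. Mrps7, of the subunit's head, was the third highest in level, at 42.9 ± 8.42 FPKM in 2n and 44.1 ± 7.34 in 4n, and differed by 0.29 ± 0.20 on the log2 scale (SE; edgeR adjusted p 0.489). It overlaps Gga3 over 772 bases. Mrps14 was the second lowest in level, at 3.33 ± 0.472 FPKM in 2n and 4.14 ± 0.916 in 4n, and its log2 fold change was 0.58 ± 0.21 (SE; edgeR adjusted p 0.211).

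The 3 mammalian genes of the S18 family are paralogs that occupy different places in the mitoribosome. Mrps18c was listed with the proteins that have a bacterial homolog. Mrps18a and Mrps18b were listed as restricted to mitochondria, although they belong to the same family. Mrps18b differed by 0.43 ± 0.18 on the log2 scale (SE; edgeR adjusted p 0.265) and Mrps18c by 0.34 ± 0.22 (SE; adjusted p 0.471), beside 0.90 ± 0.27 for Mrps18a, and differences among the 3 were not tested. Per transcript length Mrps18a was the highest of them, with a mean of 32.3 FPKM over the 8 libraries, against 10.7 for Mrps18c and 9.48 for Mrps18b.

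Small subunit proteins listed as restricted to mitochondria included 10 members with a median log2 fold change of 0.42. Of these edgeR called 0 without the block (5 at an unadjusted p under 0.05) and 1 with it, Mrps34, and DESeq2 called 2. Mrps34, which is needed for stability of the small subunit, lies on chromosome 10 from 14257001 to 14258132. Its CPM was 13.7, 16.1, 14.6 and 12.1 in 2n and 17.2, 22.8, 28.1 and 19.2 in 4n. All 4n libraries were above all 2n libraries. Fitted by edgeR, its log2 fold change was 0.63 ± 0.18 (SE), with an adjusted p of 0.112 without and 0.0482 with the block. Mrps22, a cardiomyopathy gene in humans, differed by 0.41 ± 0.20 on the log2 scale (SE; edgeR adjusted p 0.326).

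Mrps33 was the only member with a negative value, although Mrpl2 (0.00025) and Mrpl10 (0.01) were also close to a log2 fold change of 0. Its CPM was 14.8, 13.8, 16.1 and 13.2 in 2n and 13.1, 14.4, 15.5 and 14.1 in 4n. The 2 groups covered nearly the same range, and the edgeR log2 fold change was -0.02 ± 0.13 (SE; adjusted p 0.963), with a sign that turned positive without the 2n library of replicate 3 or the 4n library of replicate 1. Under total count scaling it was -0.26.

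Mrps36 was not placed in either subunit, because its product is now regarded as a subunit of the 2-oxoglutarate dehydrogenase complex of the tricarboxylic acid cycle. It had the largest log2 fold change of the members. Its CPM was 8.41, 14.3, 10.3 and 12.5 in 2n and 13.7, 25.9, 51.9 and 24.0 in 4n. The 4n library of replicate 3 stood highest and that of replicate 1 lay inside the 2n range. In edgeR the log2 fold change was 1.34 ± 0.37 (SE), with an adjusted p of 0.103 without and 0.0638 with the block, and 0.89 without the 4n library of replicate 3 (adjusted p 0.162). DESeq2 on all libraries called Mrps36 higher (adjusted p 0.00855).

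**Figure D2:**
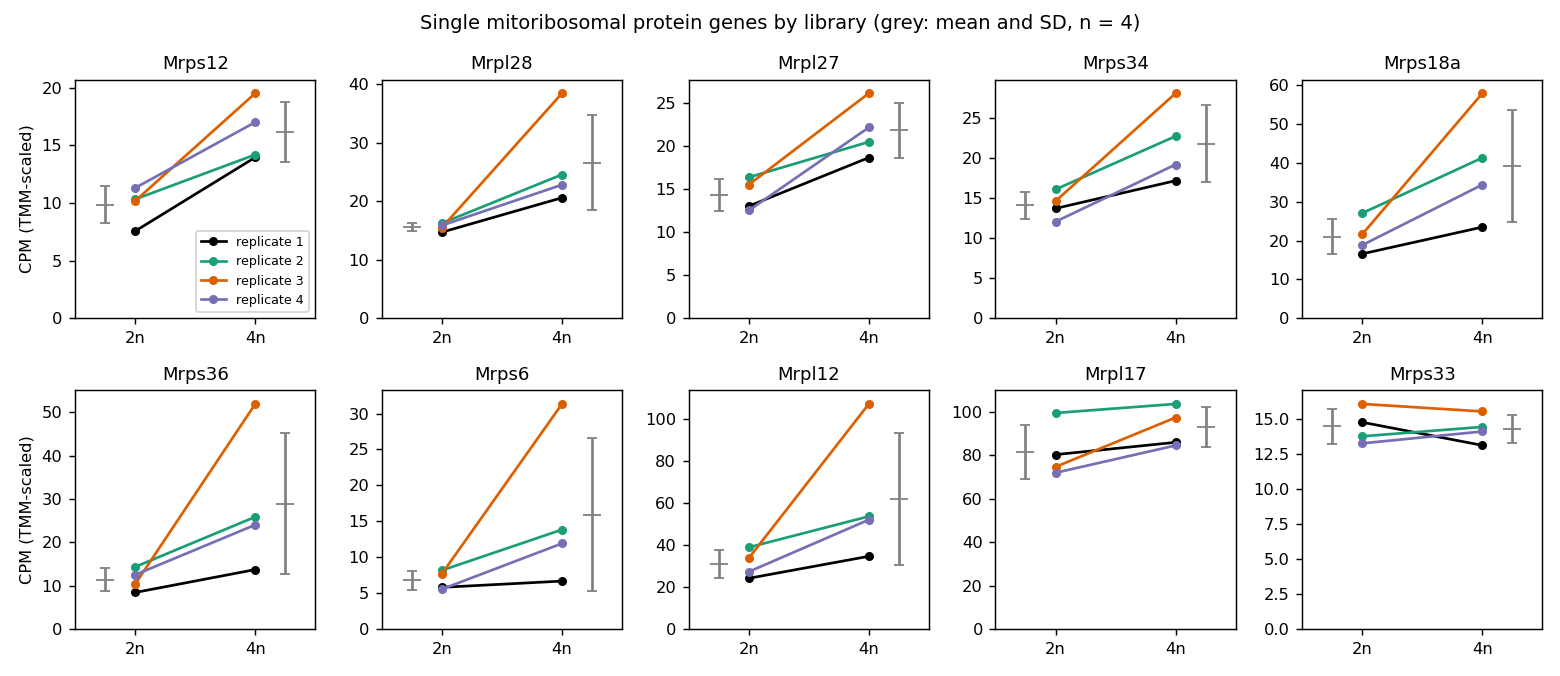
CPM of 10 members by library, with lines joining the 2n and 4n libraries of one replicate number and grey marks for the mean and SD of each group (n = 4). Mrps12, Mrpl28, Mrpl27 and Mrps34 show no overlap between groups. The 4n library of replicate 3 is the highest for these and for Mrps18a, Mrps36, Mrps6 and Mrpl12. Log2 spread among 4n libraries is largest for Mrps36, Mrps6 and Mrpl12, and Mrpl17 and Mrps33 cover similar ranges in both groups.

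Across members the level per transcript length spanned 25.9-fold, from a mean over the 8 libraries of 3.59 FPKM for Mrpl1 through a median of 18.6 to 93.1 for Mrpl17. Grouped by symbol, the median log2 fold change was 0.44 for the 41 Mrpl genes and 0.41 for the 29 Mrps genes. Summed Mrps counts per Mrpl count were 0.617, 0.673, 0.659 and 0.659 in the 2n libraries and 0.646, 0.697, 0.655 and 0.617 in the 4n libraries. This ratio was higher in 4n in 2 of 4 pairs, and the means in 2n and 4n were 0.652 ± 0.0245 and 0.654 ± 0.0332 (SD, n = 4).

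The size of the difference varied between replicates. The median log2 difference over the 70 members was 0.16 in pair 1, 0.25 in pair 2, 0.73 in pair 3 and 0.50 in pair 4, with 51, 62, 68 and 67 members higher in 4n. Over all genes tested, the lowest of the 4 medians was -0.02 and the highest -0.00024. Pair 3 gave the largest difference for 53 of the 70 members, and the 4n library of replicate 3 was the highest of all 8 libraries for 64. Counted against the highest 2n library of each gene, 23 members exceeded the 2n range in the 4n library of replicate 1, 52 in replicate 2, 65 in replicate 3 and 46 in replicate 4. The same shares over all genes were 19.8, 24.9, 33.7 and 29.5%. Replicate 1 was the mildest pair for these genes and replicate 3 the strongest, as also for the 4n share of cardiomyocyte markers, which ran from 0.552% in replicate 1 to 4.20% in replicate 3. The part of the marker share in this order was not tested. The median SD of log2 CPM over members was 0.198 among 2n libraries and 0.356 among 4n libraries, against 0.240 and 0.312 over all genes, and 55 members had the larger SD in 4n. Without the 4n library of replicate 3 the members' median log2 fold change was 0.24, with 64 of 70 positive, and without that of replicate 1 it was 0.52, with 70 of 70 positive.

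**Figure D3:**
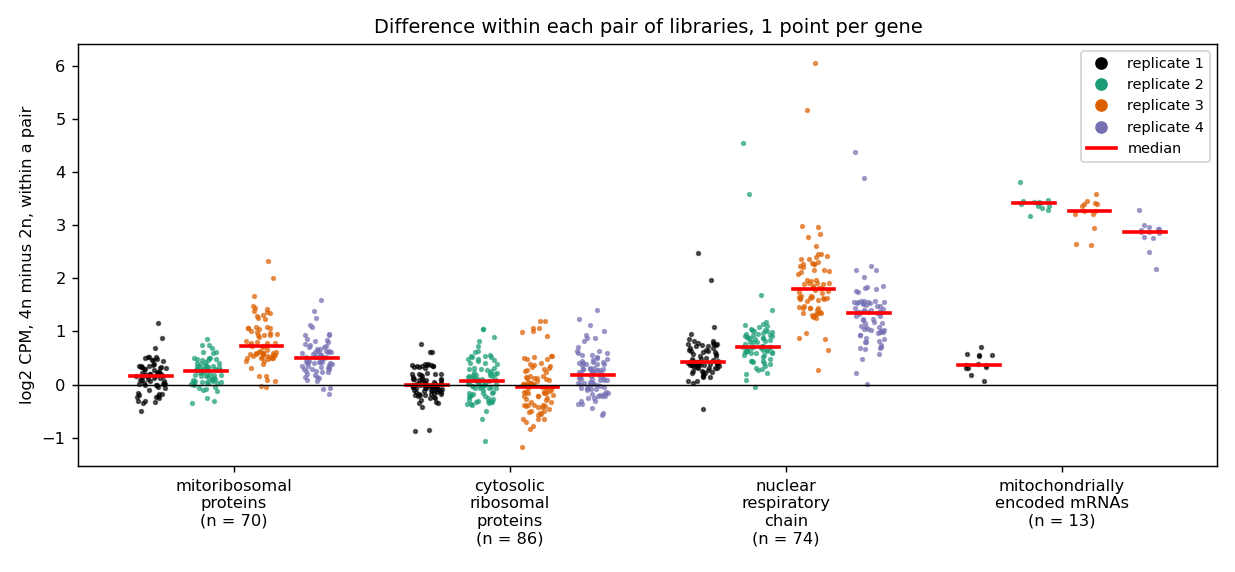
Log2 CPM difference (4n minus 2n) within each pair of libraries, with 1 point per gene, for the 70 members, 86 cytosolic ribosomal protein genes, 74 nuclear respiratory chain and ATP synthase genes and the 13 mitochondrially encoded mRNAs; red bars are medians. Member medians run from 0.16 in pair 1 to 0.73 in pair 3, whereas the mitochondrially encoded mRNAs are at 0.37 in pair 1 and 2.87 or more in the other pairs.

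Mitochondrially encoded mRNAs differed far more between the fractions, in 3 of 4 pairs, than the transcripts of the ribosomal proteins that serve them. The 13 mRNAs took 2.78, 2.98, 3.18 and 3.71% of all counts in the 2n libraries of replicates 1 to 4 and 3.59, 24.4, 24.1 and 23.2% in the 4n libraries. The 4n library of replicate 1 lay inside the 2n range, and the other 3 were far above it. The members took 0.152, 0.171, 0.161 and 0.138% of nuclear gene counts in 2n and 0.169, 0.204, 0.277 and 0.205% in 4n. Here too the 4n library of replicate 1 fell inside the 2n range. The 4n over 2n ratio within pairs was 1.11, 1.19, 1.72 and 1.48 for the members' share of nuclear counts, and 1.29, 8.19, 7.59 and 6.27 for the mRNAs' share of all counts. The mean member share was 0.156 ± 0.0140% in 2n and 0.214 ± 0.0454% in 4n (SD, n = 4). Counting error alone set exact 95% Clopper-Pearson intervals on the member share of 0.136 to 0.140% in the lowest library and 0.274 to 0.280% in the highest.

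The order of the pairs also differed between the gene sets. Pair 2 had the largest ratio of mRNA share (8.19) but a ratio of member share of 1.19, below pairs 3 and 4, whereas pair 3 led for the members. The number of mitochondrially encoded mRNA counts per member count was 18.8, 18.0, 20.5 and 27.9 in 2n and 22.1, 159, 117 and 149 in 4n. The 4n library of replicate 1 lay inside the 2n range, and the other 3 were far above all 2n libraries. By edgeR without the block, 11 of the 13 mRNAs rose, with a median log2 fold change of 2.91 over the 13 and a range from 2.34 (Mt-nd6) to 3.35 (Mt-nd3), and Mt-atp8 (adjusted p 0.0517) and Mt-nd1 (0.0554) missed the threshold. With the replicate block 0 of 13 passed, at edgeR adjusted p values from 0.0595 to 0.0910 (13 at an unadjusted p under 0.05 in the same fit), DESeq2 without the block called all 13 and limma-voom 0, and without the 4n library of replicate 1 all 13 passed. The mitochondrial ribosomal RNAs, the other partners of the members in the mitoribosome, had log2 fold changes of 3.63 ± 0.96 for 12S and 2.98 ± 0.70 for 16S (SE; edgeR adjusted p 0.0916 and 0.0608) in these mRNA-selected libraries. Both had an unadjusted p under 0.05 and both were called higher by DESeq2.

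With mitochondrially encoded mRNAs at 23.2 to 24.4% of the counts in 3 of the 4n libraries, scaling by total counts moved the median log2 fold change of all genes to -0.25 and that of the members to 0.16. The members' median stood 0.41 above that of all genes on this scale, 0.43 above it under TMM and 0.43 above it when mitochondrial genes were left out of the scaling. As a share of all counts, mitochondrial ones included, the members' 4n over 2n ratio was 1.10, 0.924, 1.32 and 1.17 in pairs 1 to 4, so pair 2 turned lower. Directions of single members are therefore relative to the other nuclear genes, and 59 of 70 were positive under total count scaling.

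**Figure D4:**
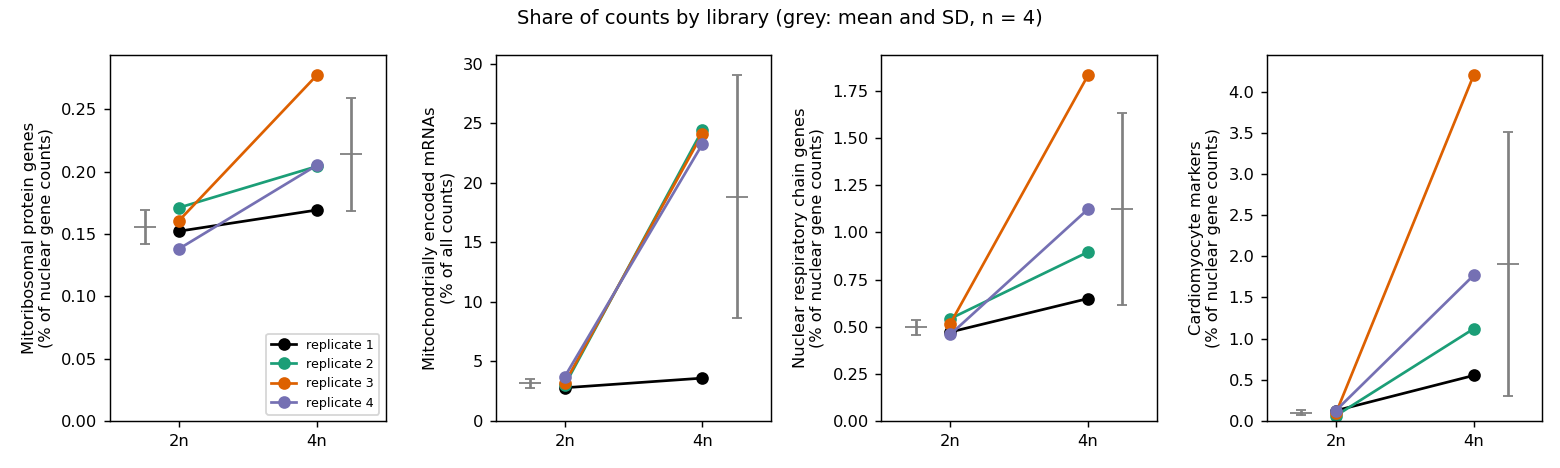
Shares of counts in each library, with lines joining the pair of libraries that share a replicate number and grey marks for the mean and SD (n = 4); the mitochondrially encoded mRNAs are a share of all counts and the other panels shares of nuclear gene counts. Replicate 1 shows little difference for the encoded mRNAs (2.78 against 3.59%), and replicate 3 is the highest 4n library for members (0.277%), nuclear respiratory chain genes and cardiomyocyte markers (4.20%).

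Other nuclear gene sets gave a scale for the members' difference. Nuclear-encoded respiratory chain and ATP synthase genes were picked by symbol, and most of their products assemble with the products of mitochondrial translation. The log2 fold changes ran from -0.04 for Atp5sl to 4.97 for Cox8b, with repeated rows of Cox6b1, Cox7a2 and Ndufa13. Atp5sl entered by its symbol, which does not show that its product is a subunit. It was the only negative row, and the next lowest was a row of Ndufa13 at 0.33. The median was 1.19 over 74 tested rows. Of these, 21 rose by edgeR without the block (72 at an unadjusted p under 0.05) and 29 with it, and 62 by DESeq2. Over all genes, edgeR called 2.67% higher without the block (12.6% at an unadjusted p under 0.05) and 4.27% with it, and DESeq2 6.62%. Their pair medians were 0.42, 0.71, 1.79 and 1.34, above the members' median in every pair. Respiratory chain counts per member count went from 3.10, 3.17, 3.21 and 3.32 in 2n to 3.84, 4.39, 6.61 and 5.48 in 4n, with no overlap. Cytosolic ribosomal proteins, the counterparts that build the ribosome of the cytosol, were also picked by symbol, with repeated rows and related copies included. The median was 0.06 over 86 tested rows, with 0 called by edgeR (17 at an unadjusted p under 0.05, of which 8 were higher). With the block 4 rows were higher, all of Rps28, Rps29 or Rps27l, and DESeq2 called 1 higher and 3 lower. These 4 rows were 4.65% of those tested, close to the 4.27% of all genes called higher in the same fit. Their share of nuclear counts was 2.59 to 2.96% in 2n and 2.36 to 2.86% in 4n, and many of them have near-identical copies that can share reads. Member counts per 1000 cytosolic ribosomal protein counts were 51.4, 62.5, 58.4 and 53.4 in 2n and 59.1, 75.2, 118 and 72.5 in 4n. Only the 4n library of replicate 1 reached into the 2n range.

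Mitoribosomal proteins that carry other symbols in the table had differences of about the members' size. Of 9 tested, Mrp63 (also called Mrpl57), a large subunit protein on chromosome 15, rose by edgeR without and with the block. Its CPM was 7.68, 7.38, 7.48 and 6.25 in 2n and 11.7, 10.8, 18.0 and 13.4 in 4n, with no overlap. The edgeR log2 fold change was 0.90 ± 0.19 (SE), adjusted p 0.0413, and 0.0393 with the block. Chchd1, of the small subunit, differed by 0.54 ± 0.14 on the log2 scale (SE; edgeR adjusted p 0.0813, and 0.0463 with the block). Dap3, a GTP-binding protein of the small subunit, differed by 0.40 ± 0.16 (SE; edgeR adjusted p 0.249). Ict1, a peptidyl-tRNA hydrolase built into the large subunit, differed by 0.43 ± 0.18 (SE; edgeR adjusted p 0.268). The median over the 9 was 0.40.

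The other machinery of mitochondrial gene expression had smaller medians, a difference between lists that was not tested. Mitochondrial translation factors had a median log2 fold change of 0.25 over 13 tested genes, with 0 called by edgeR with or without the block (2 at an unadjusted p under 0.05) and 0 by DESeq2. The smallest p values there belonged to Tufm, the elongation factor that delivers tRNA (0.66 ± 0.22, SE; edgeR adjusted p 0.173), and Gfm1, the translocase (0.88 ± 0.34, SE; adjusted p 0.235). Mitoribosome assembly factors had a median of 0.14 over 23 genes, mitochondrial aminoacyl-tRNA synthetases 0.08 over 16, and mitochondrial transcription and RNA handling genes 0.15 over 26, with 0 called by edgeR in each, with or without the block. At an unadjusted p under 0.05 without the block the counts were 0, 0 and 1, and DESeq2 called 0, 0 and 1. Slirp, which stabilises mitochondrial mRNAs, had the smallest p in the last list (0.52 ± 0.14, SE; edgeR adjusted p 0.103). Tfam, which packages mitochondrial DNA and takes part in starting its transcription, differed by 0.02 ± 0.14 (SE), with an edgeR adjusted p of 0.962.

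Of 10 regulators of mitochondrial genes tested, 2 rose by edgeR, and 3 with the block, which adds the coactivator Ppargc1b (0.98 ± 0.27 on the log2 scale, SE; adjusted p 0.102, and 0.0343 with the block). At an unadjusted p under 0.05 without the block 4 were higher, and DESeq2 called 4 higher. Over all genes, edgeR called 2.67% higher without the block and 4.27% with it, and DESeq2 6.62%. The list as a whole was not shifted, with a median log2 fold change of 0.006, 5 regulators positive and 5 negative. Within pairs, 4 were higher and 4 were lower in 4n in 4 of 4 pairs. Ppargc1a, the coactivator PGC-1 alpha, had CPM values of 0.55, 0.17, 0.69 and 1.28 in 2n and 3.12, 6.17, 22.0 and 7.38 in 4n. Every 4n library was above every 2n library, and replicate 3 was highest. The edgeR log2 fold change was 3.83 ± 0.72 (SE), adjusted p 0.0306, and 0.0275 with the block. The 2n values of Ppargc1a, at most 1.28 CPM, rest on few counts, so the size of this fold change is uncertain. Esrrg, an estrogen-related nuclear receptor of oxidative muscle, went from 2.46 ± 1.23 to 29.1 ± 25.8 CPM (SD, n = 4), or 3.57 ± 0.68 on the log2 scale (SE; edgeR adjusted p 0.0306, and 0.0387 with the block). Nrf1 and Gabpa, the factors best known for driving nuclear genes of the mitoribosome and respiratory chain, had values of -0.20 and -0.18 and were not called.

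**Figure D5:**
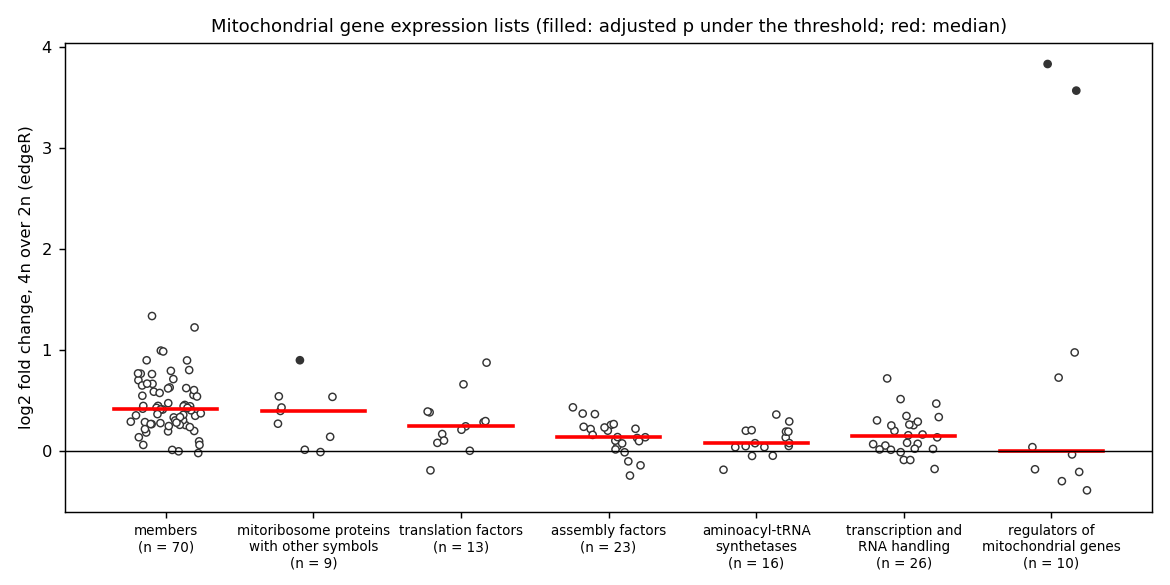
edgeR log2 fold changes (4n over 2n) of single genes in the members and in 6 related lists, with filled points for an adjusted p under 0.05 without the block and red bars for medians. The members' median of 0.42 and that of mitoribosomal proteins with other symbols (0.40) lie above the other lists, and the filled points are Mrp63, Ppargc1a and Esrrg.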

How the data were processed

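Gene expression was measured by RNA-seq in 8 libraries, 4 per ploidy fraction, grouped by the labels. The authors deposited a table of raw counts per gene and FPKM values, per the file headers, with gene coordinates. Reads were aligned with HISAT2 2.0.4 to Rnor_6.0, per the submitters' processing notes; how reads were counted, and with which strand setting, is not given in the sources used here, so reads of the 10 members that overlap another gene may be shared with it. Counts were tested in R 4.3.3 with edgeR 4.0.16 (filterByExpr, TMM, robust quasi-likelihood fit, two-sided, Benjamini-Hochberg over 12983 genes, threshold 0.05), and the standard error is the absolute log2 fold change divided by the root of F. Only the edgeR fit without the block was run on simulated counts. Those counts held no replicate pairing and took their dispersions from the blocked fit, so they cannot show how the fit behaves on these paired libraries. DESeq2 1.42.0, limma 3.58.1 on voom weights and on log2(FPKM + 0.1) or log2(FPKM + 1), other scalings, filters and left-out libraries were alternatives. CPM values are TMM-scaled. Shares of nuclear gene counts leave out the mitochondrial chromosome, and intervals cover counting error only.

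Replicate numbers come from the labels' titles, and the library names of each same-numbered pair share a prefix that no other pair has. Deviations of same-numbered libraries from their group means correlated at 0.43, 0.58, 0.27 and 0.65 across genes, and 8 of 8 libraries correlated best with their own number. Same-numbered libraries were therefore compared as pairs in the within-pair differences. The stated edgeR fit nonetheless leaves the pairing out, and fold changes, standard errors and calls come from it unless the block is named. The fit with the replicate number as a block is given where it changes a call. Members and gene lists were chosen with earlier results of these data known. Members named singly were those called with or without the block, filled up to 6 per direction by unadjusted p, the 3 highest and 3 lowest by FPKM, the 3 with the largest 4n spread and a fixed set of disease genes and paralogs. For related lists they were the called genes or the smallest p. Mrpl2, Mrpl10, Dap3, Ict1, Tfam, Nrf1 and Gabpa were added after their values had been seen. The p-values measure the spread between these libraries only.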

Additional observations from a re-analysis of the deposited data

Results flagged for a closer look

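Of 66 groups of 4 libraries examined, 3 held a library whose gap to the nearest of the others was large against the group's range, a gap that chance gives in about 1 in 20 groups. The 2n library of replicate 4 had 15.3 CPM of Mrpl54, against 25.3 or more in the other 2n libraries. The 4n library of replicate 1 had 3.71% of all counts from the mitochondrial chromosome, of which the 13 mRNAs made 3.59% of all counts, against 23.2% or more from those mRNAs in the other 4n libraries.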

How the results depend on the processing

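The members' median log2 fold change stayed positive in every alternative, from 0.24 to 0.52 when single libraries were left out and from 0.28 to 0.47 when single pairs were left out with the replicate block; on log2(FPKM + 0.1) it was 0.15 and on log2(FPKM + 1) it was 0.14, where the median of all genes was -0.26 and -0.20. Members called higher numbered 5 with the replicate block and 14 with DESeq2, 0 to 16 without single libraries and 0 to 23 without single pairs under the block. Over all genes, higher calls were 554 and lower calls 79 with the block. Higher calls were 860 with DESeq2, 186 on log2(FPKM + 1), 0 with limma-voom, 0 to 846 without single libraries and 0 to 1215 without single pairs (556 without pair 3). Lower calls, 1 in all with the stated fit, were 93 with DESeq2, 15 and 8 on log2(FPKM + 0.1) and log2(FPKM + 1), 12 under total count scaling, 2 with mitochondrial genes left out of the scaling, 0 with limma-voom, 0 to 89 without single libraries and 0 to 379 without single pairs (50 without pair 3). Of the 13 mitochondrially encoded mRNAs, 11 rose with the stated fit, 0 with the block, limma-voom or either FPKM scale and 2 without a filter on low counts, and from 0 to 13 when single libraries or pairs were left out. Mrpl17 was at -0.057 under total counts and at -0.050 and -0.0496 on the FPKM scales with 0.1 and 1 added, and Mrpl44 at -0.025 and -0.020 on those scales. Mrps33 ranged from -0.059 to 0.033 without single libraries, turning positive without the 2n library of replicate 3 (0.033) or the 4n library of replicate 1 (0.023), and was at 0.017 with the replicate block and without pair 1, and at -0.26, -0.26 and -0.25 under total counts and on the FPKM scales with 0.1 and 1 added. The cause was not tested. Every member had at least 53 counts in every library.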

Other observations

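The log2 differences of the 70 members were more alike among pairs 2, 3 and 4 than with pair 1. Pearson's r across members, which are not independent replicates and share libraries and depth, was 0.65, 0.52 and 0.69 among pairs 2, 3 and 4 and 0.21, 0.26 and 0.18 between pair 1 and each of them. Across all genes tested the values were 0.76, 0.71 and 0.79 among pairs 2, 3 and 4 and 0.51, 0.56 and 0.57 with pair 1. These are given as a description.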
